A study of Mus musculus with 10 samples.

Results

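The miR-15/16/107 seed group comprises miRNAs that share a short run of bases at the 5′ end, the part of a miRNA that pairs with its targets. Its 9 members here were the array probes whose printed name was exactly mmu-miR-15a, mmu-miR-15b, mmu-miR-16, mmu-miR-103, mmu-miR-107, mmu-miR-195, mmu-miR-322, mmu-miR-497 or mmu-miR-503, out of 1040 probes with a mouse miRNA name. They were followed over 10 single-colour arrays of total RNA of mIMCD-3, a widely used mouse cell line derived from the inner medullary collecting duct of the kidney. In 5 samples the cells had received 100 nM aldosterone, the mineralocorticoid hormone that raises sodium reabsorption in the collecting duct. In the other 5 they had received the ethanol vehicle alone. All samples shared culture on transwell filters to confluence and a day in hormone-free medium before treatment, with RNA taken by TRIzol extraction and Hy5 labelling of 500 ng. The titles carry 5 starting codes, each found once in either group, and these were numbered replicates 1 to 5. Replicate 3 alone also has the title tag P19. Replicates 1 and 2 share another tag, replicates 4 and 5 have none, and the meaning of the tags is not given. The labels do not say whether the samples were separate cultures, so p-values here reflect the variation among these 10 samples and no more, and part of it may be technical.

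These miRNAs are best known as brakes on the cell cycle. Mature miRNAs guide Argonaute proteins to matching sites in messenger RNAs, and established targets of the miR-15/16 branch include cyclin D1, cyclin E1, CDK6, the checkpoint kinases CHEK1 and WEE1 and the survival protein BCL2. The human genes for miR-15a and miR-16 lie in a region often deleted in chronic lymphocytic leukaemia. miR-103 and miR-107 derive from introns of pantothenate kinase genes and are better known for targeting Dicer and, in mouse liver and fat, caveolin-1. Mouse miR-322 corresponds to human miR-424, and together with miR-503 it targets the phosphatase Cdc25a.

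All 9 members matched a mature miRNA of RefSeq's GRCm38.p6 annotation, where each name carries an arm suffix and miR-195 and miR-497 also the letter a. The sequences are shown 5′ to 3′ because they define the group, with the seed (bases 2 to 8) in capitals. The first set shares the seed AGCAGCA.
miR-15a: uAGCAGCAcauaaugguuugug
miR-15b: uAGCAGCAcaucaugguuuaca
miR-16: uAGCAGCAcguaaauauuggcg
miR-195: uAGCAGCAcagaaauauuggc
miR-322: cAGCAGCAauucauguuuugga
miR-497: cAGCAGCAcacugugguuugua
The seed of miR-503 ends in another base.
miR-503: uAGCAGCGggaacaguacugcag
The seed of miR-103 and miR-107 is the same run shifted by a base.
miR-103: aGCAGCAUuguacagggcuauga
miR-107: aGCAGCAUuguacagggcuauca

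With positions counted from 1 at the 5′ end, miR-107 differs from miR-103 by G22C alone, so that 22 of 23 bases are the same. miR-195 differs from miR-16 over its 21 bases by G10A and U11G. miR-15a and miR-15b differ at 4 of 22 bases. Probe sequences were not used here, so whether a probe tells such close relatives apart was not tested. The 6 letters AGCAGC, searched on the miRNA strand within bases 1 to 8, were present in 13 of 1679 mature mouse miRNAs (0.774%), namely the 9 members and miR-195b, miR-6342, miR-6353 and miR-6419, none of which has a probe under that name.

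Most members lie in pairs on the genome. In GRCm38.p6 miR-15a is at chr14:61632075-61632096 and a copy of miR-16 at chr14:61631936-61631957, both on the minus strand within the span of the long noncoding RNA gene Dleu2. miR-15b at chr3:69009775-69009796 and the other copy of miR-16 at chr3:69009918-69009939 are on the plus strand within the gene Smc4, a condensin subunit. The identical miR-16 of both copies is read by 1 probe, and the 2 genes cannot be told apart. miR-322 at chrX:53054306-53054327 and miR-503 at chrX:53054027-53054049 lie on the minus strand within the noncoding gene C430049B03Rik, and miR-497 at chr11:70234730-70234751 and miR-195 at chr11:70235062-70235082 lie 332 bases apart on the plus strand, counted between their starts. miR-103 has copies at chr2:131288103-131288125 in Pank2 and chr11:35782447-35782469 in Pank3, both on the plus strand, and miR-107 is at chr19:34820700-34820722 on the minus strand in Pank1.

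Of the 9 members, 6 were detected on all 10 arrays, where 20.5% of the 1040 mouse probes were: miR-15a, miR-15b, miR-16, miR-103, miR-107 and miR-322. A probe counted as detected where both of its 2 spots exceeded the mean of the blank spots plus 2 SD, and across the arrays the blank mean was 17.6 to 21.5 units and its SD 0.939 to 1.34. miR-503 was detected on 9 arrays, with vehicle 2 as the exception. miR-195 was detected on 6 arrays, 3 of each group. miR-497 was detected on aldosterone 3 alone, so the cluster of miR-195 and miR-497 gave little signal above background in these cells. The rule for testing, detection on at least 5 arrays, was met by 8 of 9 members and by 34.3% of the mouse probes, and miR-497 was not tested. On the aldosterone arrays 8, 7, 9, 8 and 7 members were detected in replicates 1 to 5, and on the vehicle arrays 8, 6, 8, 7 and 8. The mean was 7.8 ± 0.837 with aldosterone and 7.4 ± 0.894 with vehicle (SD, n = 5 each), a difference of 0.4 that lay within that variation (two-sided exact permutation test over 252 splits, p = 0.722). The difference was 0.1 without aldosterone 3 and 0.05 without vehicle 2.

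The arrays themselves differed in brightness. The median raw signal above the blanks, over the 213 probes detected on all arrays, ran from 12.4 units on vehicle 2 to 76.4 on aldosterone 3, and in 5 of 5 pairs with a shared number the aldosterone array was the brighter one. The same 2 arrays had the fewest and the most detected probes, 234 and 510. Epithelial markers of the miR-200 family were present, with 3 of 5 probes detected on all arrays and a summed raw signal of 147 to 1116 with aldosterone and 52.8 to 680 with vehicle. Of blood cell markers 4 of 5 were detected on no array, miR-142-3p, miR-223 and miR-451 among them, with sums of -0.40 to 7.60 and 1.80 to 5.74 units. Of muscle markers 5 of 6 matched by name were detected on none (sums 5.38 to 13.7 and 2.01 to 13.8), of endothelial and fibroblast markers 3 of 6 (9.70 to 34.7 and 2.74 to 21.9) and of neuron markers 3 of 5 (9.50 to 31.8 and 5.45 to 21.8). Some went the other way: miR-128 was detected on 10 arrays, miR-126-3p and miR-206 on 9, miR-9 on 6, miR-199a-5p on 4, miR-150 on 3 and miR-214 on 2. The epithelial miR-200c and miR-141 were detected on 2 and 1. The probes of miR-208a-3p and of miR-199a-3p with miR-199b, which the lists did not match, were detected on none. Whether array brightness or any of these sums plays a part in the values below was not tested.

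Intensities below were corrected for background, quantile-normalized between arrays and are given in units above background. Quantile normalization gives probes of equal rank equal values, and this is why some values repeat. No probe's level is compared with another's, because probes differ in how well they hybridize.

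The question of the study was which miRNAs aldosterone changes. No member passed the test, and neither did any of the 357 probes tested (limma adjusted p under 0.05: 0 of 8 members, 0% of probes). Without adjustment 0 of 8 members and 4 probes (1.12%) had p under 0.05, and with the replicate number as a block 1 of 8 members did, against 5.32% of probes. The values of all 9 members overlapped between the groups, as they did for every one of the 357 probes. The log2 change was above 0 for 6 of the 8 tested members and for 51.8% of all tested probes, and its median was 0.0096 over the members and 0.0023 over all probes. Changes are on the log2 scale of intensity plus 50, which understates the change of dim probes. With plain subtraction of the blank mean in its place the change was 0.48 for miR-15a in place of 0.22, 0.26 for miR-322 in place of 0.10, 0.16 for miR-195 in place of 0.01 and 0.093 for miR-503 in place of 0.0060. With an offset of 16 these were 0.33, 0.17, 0.034 and 0.017. The limma adjusted p of each stayed at 0.870 or above in both settings.

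**Figure D1:**
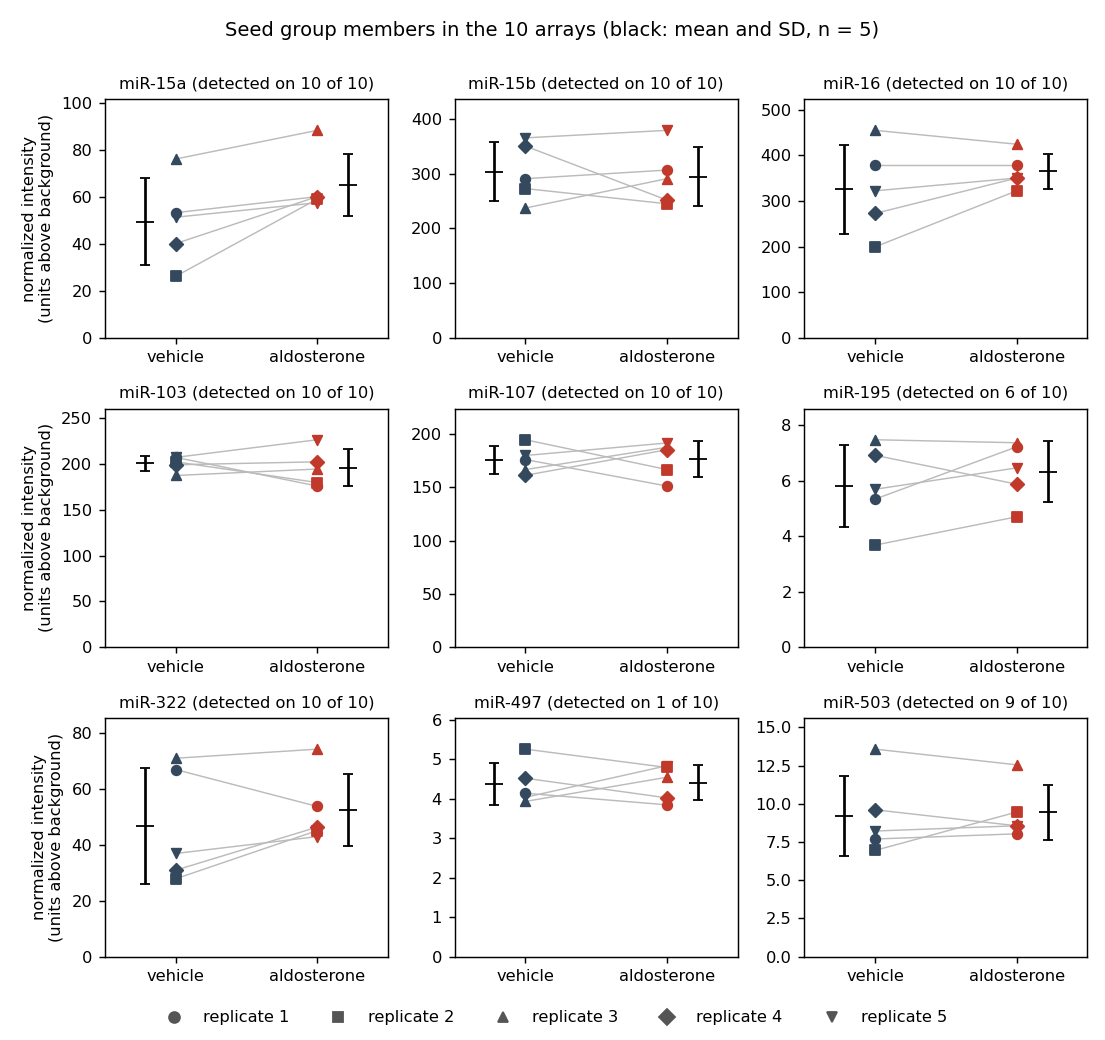
Normalized intensity (units above background, vertical axis from 0, a separate scale for each panel) of the 9 members in the vehicle and aldosterone arrays, with grey lines joining samples of the same replicate number and black bars for the mean and SD (n = 5). The groups overlap in every panel, and miR-15a is higher with aldosterone in 5 of 5 pairs.

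miR-15a, which shares the Dleu2 locus with miR-16, had the largest log2 change of the members after quantile normalization with flagged spots left out. That order was not stable: the change of miR-16 was the larger without normalization (0.61 against 0.45), with spike or percentile scaling, with flagged spots kept and without replicate 3. The intensity of miR-15a was 60.2, 59.2, 88.5, 60.2 and 57.6 in aldosterone replicates 1 to 5 and 53.4, 26.2, 76.3, 40.2 and 51.4 in vehicle replicates 1 to 5. Aldosterone was higher in every same-numbered pair, most of all in pair 2, whose vehicle value was the lowest of all, yet vehicle 3 lay above 4 of the 5 aldosterone values. The means were 65.1 ± 13.1 and 49.5 ± 18.5 (SD, n = 5 each), and the log2 change was 0.22 (SE 0.13, 95% interval -0.07 to 0.52, limma adjusted p = 0.889). With the replicate number as a block the interval was 0.04 to 0.41, with an unadjusted p of 0.0245 and an adjusted p of 0.695 (limma). Being higher in 5 of 5 pairs held for 15 of the 357 probes (4.2%), miR-15a among them, and an unadjusted block p under 0.05 with a higher value by 3.08% of probes, with a lower value, which no member had, by 2.24%. The change was 0.14 without vehicle 2 and also 0.14 without aldosterone 3. The level of miR-15a followed array brightness over the 10 arrays (r = 0.93, rho = 0.91, and r = 0.83 without aldosterone 3 and vehicle 2), and brightness was itself higher with aldosterone in every pair; its part in the difference was not tested.

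miR-16 is known to repress several G1 cyclins. Its intensity was 379, 322, 424, 350 and 350 with aldosterone and 379, 199, 455, 273 and 322 with vehicle. The vehicle values spanned the whole aldosterone range, with vehicle 2 the lowest and vehicle 3 the highest of all 10. The log2 change was 0.18 (SE 0.17, 95% interval -0.21 to 0.57, limma adjusted p = 0.889), with 3 pairs higher, 1 lower and 1 tied. It was 0.05 without vehicle 2, 0.08 without that pair and 0.29 without vehicle 3. On vehicle 3 it rests on 1 spot, because the other, at 275 raw units above the blanks against 933 for the kept one, carries the quality flag of the array file. With both spots that array came to 260 in place of 455 and the change to 0.32. Pair 3 was then higher with aldosterone, and no vehicle value reached the highest aldosterone value, 424. The span and the pair counts thus rest on that spot too.

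miR-15b, the partner of the other miR-16 copy within Smc4, did not follow miR-15a. Its intensity was 306, 245, 291, 251 and 379 with aldosterone and 291, 273, 237, 350 and 365 with vehicle. Replicate 5 was high in both groups and the pairs went both ways, 3 higher and 2 lower. The log2 change was -0.04 (SE 0.13, 95% interval -0.33 to 0.26, limma adjusted p = 0.946), and its sign turned when aldosterone 2, aldosterone 4, vehicle 4, vehicle 5 or replicate 4 as a pair was left out.

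miR-322 and miR-503 are made from the same X-linked transcript. miR-322 measured 53.8, 45.1, 74.3, 46.4 and 43.0 with aldosterone and 67.0, 27.9, 71.0, 30.9 and 36.9 with vehicle. Replicates 1 and 3 were the highest of each group, and the vehicle values again enclosed nearly all the aldosterone values. The log2 change was 0.10 (SE 0.15, 95% interval -0.23 to 0.43, limma adjusted p = 0.889), higher in 4 of 5 pairs; it was 0.03 without vehicle 2 or without aldosterone 3. miR-503 was dim, at 8.03, 9.46, 12.5, 8.56 and 8.56 with aldosterone and 7.69, 6.95, 13.6, 9.60 and 8.21 with vehicle. Its replicate 3 stood above the other replicates in both groups. The log2 change was 0.0060 (SE 0.033, limma adjusted p = 0.959), a scale on which a probe this close to background can move little, and the sign turned without aldosterone 3, vehicle 1, vehicle 2 or the pair of replicate 2.

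Of 6 listed probes from hairpins that neighbour miR-322 and miR-503, miR-351 and miR-351* were tested. Of these, 0 of 2 passed the test, with a median log2 change of -0.03. The neighbouring miR-450a is printed under names that the list did not match. Its probe was detected on 3 arrays and those of its other strands on none, below the rule for testing. miR-351 measured 12.7 ± 2.09 with aldosterone and 13.5 ± 2.88 with vehicle, and miR-351* 10.05 ± 3.21 and 12.1 ± 4.19 (SD, n = 5 each). Their log2 changes were -0.02 (SE 0.035, limma adjusted p = 0.928) and -0.05 (SE 0.052, limma adjusted p = 0.889).

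miR-103 and miR-107, the pair from the pantothenate kinase introns, were the steadiest of the members detected throughout. miR-103 measured 176, 180, 195, 202 and 227 with aldosterone and 207, 202, 188, 199 and 207 with vehicle. The vehicle values lay within the aldosterone range. miR-107 measured 151, 167, 188, 185 and 192 with aldosterone and 176, 195, 167, 161 and 180 with vehicle. Both were lower with aldosterone in replicates 1 and 2 and higher in replicates 3, 4 and 5. The log2 changes were -0.03 (SE 0.054, 95% interval -0.15 to 0.09) and 0.0034 (SE 0.059, 95% interval -0.13 to 0.14), with limma adjusted p of 0.924 and 0.982. Leaving out replicate 1 or 2 as a pair turned the sign of the miR-103 change, and 8 of 15 omissions of an array or a pair turned that of miR-107. Over the 10 arrays the highest value was 1.29 times the lowest for both, against 3.37 times for miR-15a, 2.28 times for miR-16 and 2.67 times for miR-322.

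miR-195, whose targets in mouse heart muscle include the checkpoint kinase Chek1, measured 7.23, 4.70, 7.38, 5.88 and 6.47 with aldosterone and 5.34, 3.68, 7.49, 6.92 and 5.70 with vehicle. Replicate 2 was the lowest of either group. Its log2 change was 0.01 (SE 0.022, 95% interval -0.04 to 0.06, limma adjusted p = 0.921), and it turned sign without vehicle 2. Its duplicate spots differed by a median CV of 27.5%, against 5.79% for miR-15a and 2.42% for miR-15b. miR-497, made beside it, stayed between 3.84 and 4.83 units with aldosterone and between 3.93 and 5.25 with vehicle, and these values were not well above background.

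**Figure D2:**
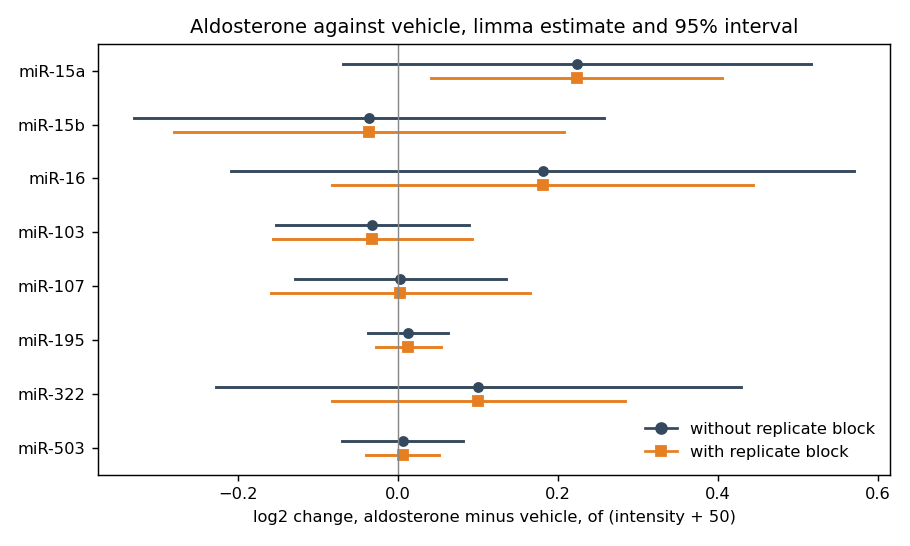
Log2 change of intensity plus 50, aldosterone minus vehicle, for the 8 tested members (horizontal axis), with the limma estimate as a point and its 95% interval as a line, without and with the replicate block. Of the 16 intervals only that of miR-15a with the block, 0.04 to 0.41, lies apart from 0, and its adjusted p is 0.695.

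The other strands of the hairpins were at the edge of detection. Of 11 on the array, none was detected on all arrays and 6 were tested, with 5 log2 changes above 0 and 1 below and a median of 0.01, and 0 passed the test. The 3 with the smallest unadjusted p were miR-103-1* (6.67 ± 0.672 with aldosterone, 5.84 ± 1.18 with vehicle), miR-322* (6.30 ± 1.61 and 7.16 ± 1.32) and miR-16-2* (5.99 ± 0.716 and 5.38 ± 1.73; SD, n = 5 each), each with a limma adjusted p of 0.889. miR-322* thus had a log2 change of -0.02 beside 0.10 for miR-322, and that difference was not tested.

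Other miRNAs with established targets among the G1 cyclins, cyclin-dependent kinases, their inhibitors, RB or E2F factors were present but did not pass the test either. Of 28 such probes, among them the let-7 family, the miR-17 family and miR-221 and miR-222, 23 were detected on all arrays and tested. Their log2 changes were above 0 in 14 and below 0 in 9, with a median of 0.05, and 0 of 23 passed the test without or with the block. miR-106a of the miR-17 family measured 121 ± 18.0 with aldosterone against 103 ± 15.7 with vehicle, a log2 change of 0.16 (SE 0.088). Its duplicate spots differed by a median CV of 30.1%. miR-221, a repressor of the CDK inhibitor p27, measured 63.8 ± 7.25 and 70.6 ± 5.63 (log2 change -0.09, SE 0.049) and was lower with aldosterone in 5 of 5 pairs, as were 2.52% of all tested probes. miR-92a measured 42.4 ± 5.32 and 50.0 ± 8.86 (log2 change -0.11, SE 0.064; SD, n = 5 each), and all 3 had a limma adjusted p of 0.889.

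Of the members detected throughout, a set that moved together across the arrays could be described, a description made after the values were seen. On vehicle 3 the miR-16 value rests on 1 spot, 455 units in place of 260 with both. The coefficients of miR-16 here rest on that spot too. By that value, miR-15a, miR-16 and miR-322 were high in replicate 3 of both groups, and they were low in vehicle 2 and vehicle 4. Their log2 values correlated over the 10 arrays at r = 0.94 for miR-15a with miR-16, 0.90 for miR-16 with miR-322 and 0.85 for miR-15a with miR-322 (rho 0.85, 0.95 and 0.88, and r of 0.89, 0.92 and 0.74 without aldosterone 3 and vehicle 2). The 10 arrays come in 5 same-coded pairs and share 1 normalization, so these coefficients carry no test. Against them miR-15b gave r of -0.24 with miR-15a and -0.17 with miR-16, its cluster partner, while miR-103 and miR-107 gave 0.73 with each other and -0.27 to -0.14 with miR-15a and miR-16. miR-15b gave 0.58 with miR-103 but 0.08 with miR-107 (rho 0.52 and 0.09), so miR-15b, miR-103 and miR-107 did not share a pattern of their own. miR-16 and miR-322 followed array brightness like miR-15a, at r of 0.91 and 0.93 (0.96 and 0.89 without the same 2 arrays), where miR-15b, miR-103 and miR-107 gave -0.21, -0.20 and -0.06. The dim members were not placed: miR-195 and miR-503 gave r of 0.69 and 0.64 with brightness (0.36 and 0.27 without the same 2 arrays), and miR-497, not well above background, gave -0.49 with brightness and -0.68 with miR-16. In the authors' deposited normalized values, which scale each array by its median, brightness and all 6 of these probes moved together, at 0.846 for miR-15b, 0.961 for miR-103 and 0.945 for miR-15a. After cyclic loess miR-103 and miR-107 gave 0.553 and 0.536 with brightness, so the separation of miR-15a, miR-16 and miR-322 from the others depends on the normalization.

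**Figure D3:**
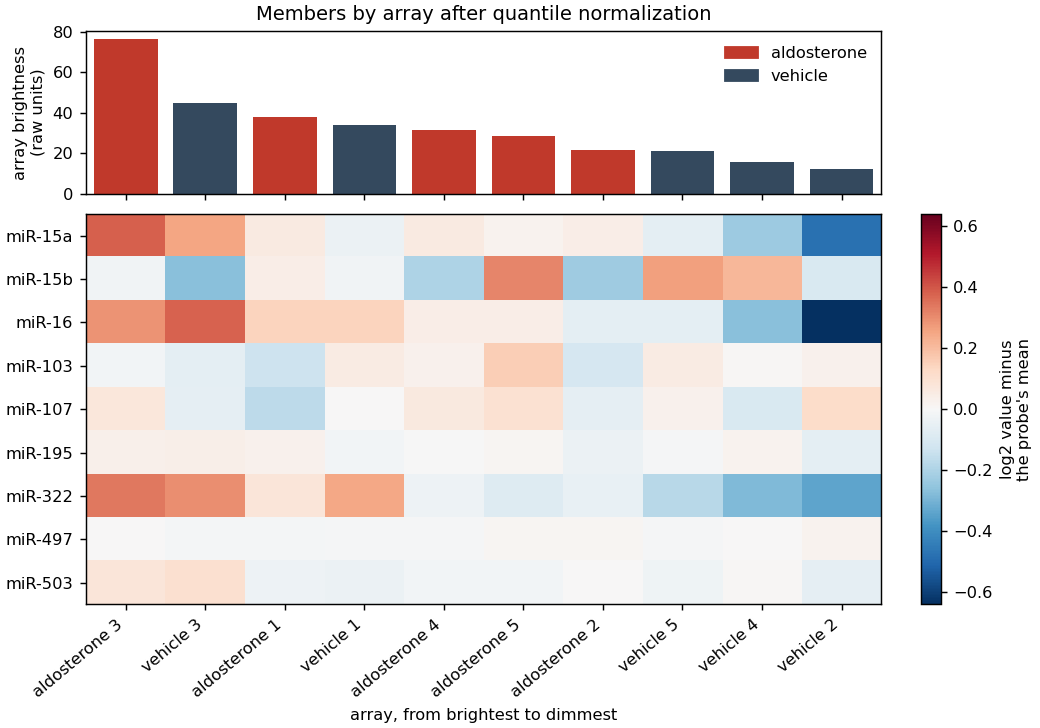
Top, median raw signal above the blanks of the 213 probes detected on all arrays, by array from brightest to dimmest. Bottom, log2 value of each member minus its mean over the arrays (red higher, blue lower): miR-15a, miR-16 and miR-322 run from red to blue with falling brightness, and miR-15b, miR-103 and miR-107 do not.

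Ratios between members on the same array need no normalization between arrays, though their absolute size depends on the probes and only their variation can be read. These pairs were also chosen after the values were seen and carry no test. The raw ratio of miR-103 to miR-107 stayed within 1.04 to 1.20 over the 10 arrays, its highest 1.16 times its lowest. That of miR-16 to miR-15a ran from 5.10 to 7.72, a spread of 1.51 times, with 6.07 ± 0.926 for aldosterone and 7.20 ± 0.304 for vehicle (SD, n = 5 each). It was higher with aldosterone in 1 of 5 pairs. Its vehicle 3 value, 7.17, uses the 1 kept spot of miR-16, at 933 raw units against 275 for the flagged spot. The range, the vehicle mean, its SD and the count of pairs thus rest on leaving the flagged spot out. The raw ratio of miR-15a to miR-15b ran from 0.0882 on vehicle 2 to 0.297 on aldosterone 3, a spread of 3.37 times, and was higher with aldosterone in 5 of 5 pairs. This ratio was lowest on the 2 dimmest arrays, vehicle 2 and vehicle 4 (0.118), and highest on the 2 brightest, vehicle 3 (0.287) and aldosterone 3, and the aldosterone array was the brighter of every pair; the part of brightness in it was not tested. Within arrays, then, miR-15a changed unequally with its relative miR-15b, and miR-103 moved closely with miR-107, from which it differs by 1 base.

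**Figure D4:**
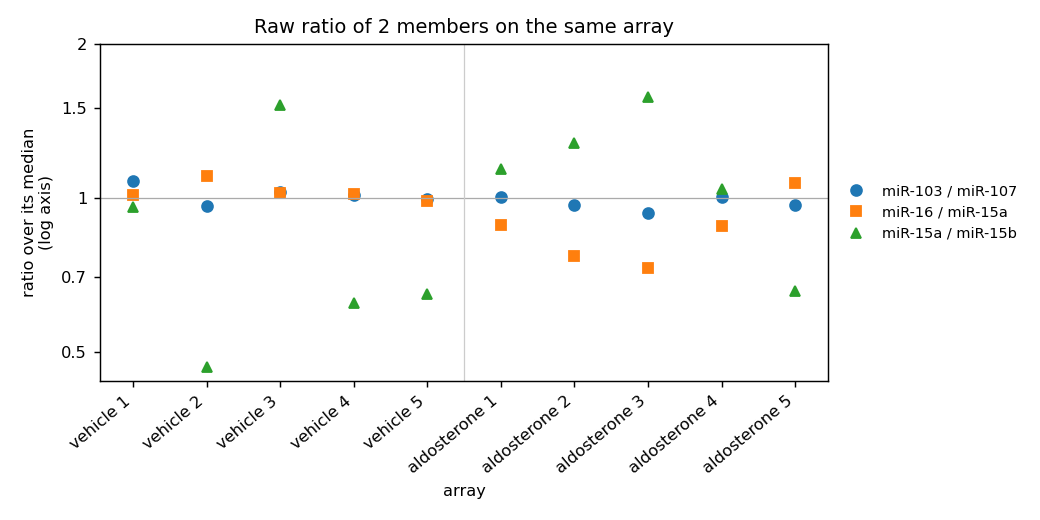
Raw signal ratio of 2 members on the same array, divided by the median of that ratio over the 10 arrays (vertical axis, log scale), for miR-103 over miR-107, miR-16 over miR-15a and miR-15a over miR-15b. The first stays close to 1, while miR-15a over miR-15b spreads 3.37 times between vehicle 2 and aldosterone 3.

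The members were also compared across the 5 title codes, whose meaning the labels do not give. In a limma F-test of the code with treatment in the fit, 0 of 8 members passed an adjusted p under 0.05, against 2.8% of probes. With 2 arrays to a code, this count does not show that the codes were alike. Without adjustment 4 of 8 members were below 0.05, where 21.6% of all probes were. The unadjusted limma p-values were 0.019 for miR-322, 0.0283 for miR-503, 0.0331 for miR-15a and 0.0499 for miR-16. For each of the 4, replicate 3 had the highest mean of its 2 arrays, 72.7 for miR-322, 13.1 for miR-503, 82.4 for miR-15a and 440 for miR-16. The mean and p-value of miR-16 rest on 1 spot of vehicle 3, where both spots gave 260 in place of 455. In the same order, the adjusted limma p-values were 0.165, 0.185, 0.199 and 0.227. Replicate 3 also holds the brightest pair of arrays and is the only one with the title tag P19, and the part of either was not tested. After cyclic loess the same 4 members passed the adjusted threshold, where 15.1% of probes did. Other settings gave other members: 8 of 8 without normalization, where 60.8% of probes passed. After percentile scaling miR-15b, miR-16, miR-195 and miR-503 did, where 93.8% of probes passed.

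The 3 probes outside the group most like the mean of the 6 members detected throughout, by Pearson's r of log2 values over the 10 arrays among 348 probes, were miR-196a (r = 0.95), miR-98 (r = 0.94) and miR-196b (r = 0.92). miR-98 belongs to the let-7 family, and the miR-196 miRNAs lie in the Hox gene clusters. The mean they resemble was itself mostly that of miR-16, miR-15a and miR-322 (r of 0.92, 0.89 and 0.83 with it), not of miR-15b, miR-103 and miR-107 (0.09, 0.11 and 0.04). All 3 were lowest on vehicle 2, at 8.36, 7.99 and 11.1 units.

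How the arrays were put on 1 scale set the sign of several member changes. Relative to the median of all probes tested, which was 0.0023 after quantile normalization, -0.34 after scaling to the 75th percentile, -0.11 after scaling to spike controls and 0.35 in the authors' values, miR-15a, miR-16, miR-107 and miR-322 lay above that median under every one of these and under cyclic loess and no normalization. No normalization, percentile scaling and spike scaling differ only by a shift of each whole array. Distances to the median are thus the same under each of them by construction, and they are not separate support for that position. Many probes lie above a median by definition, and the share of the 357 that did so throughout was not counted. The position is thus no result about the members. After quantile normalization miR-107 was barely above it, at 0.0034. Without normalization miR-15b (0.44) and miR-103 (0.43) also lay above the median, then 0.072. The changes of miR-16 were 0.09 after cyclic loess, 0.20 after scaling to the 75th percentile and 0.66 in the authors' values, and those of miR-15a were 0.13, 0.04 and 0.92. Under none of the alternatives listed in the closing section did a member or any other probe pass the adjusted threshold for aldosterone.

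**Figure D5:**
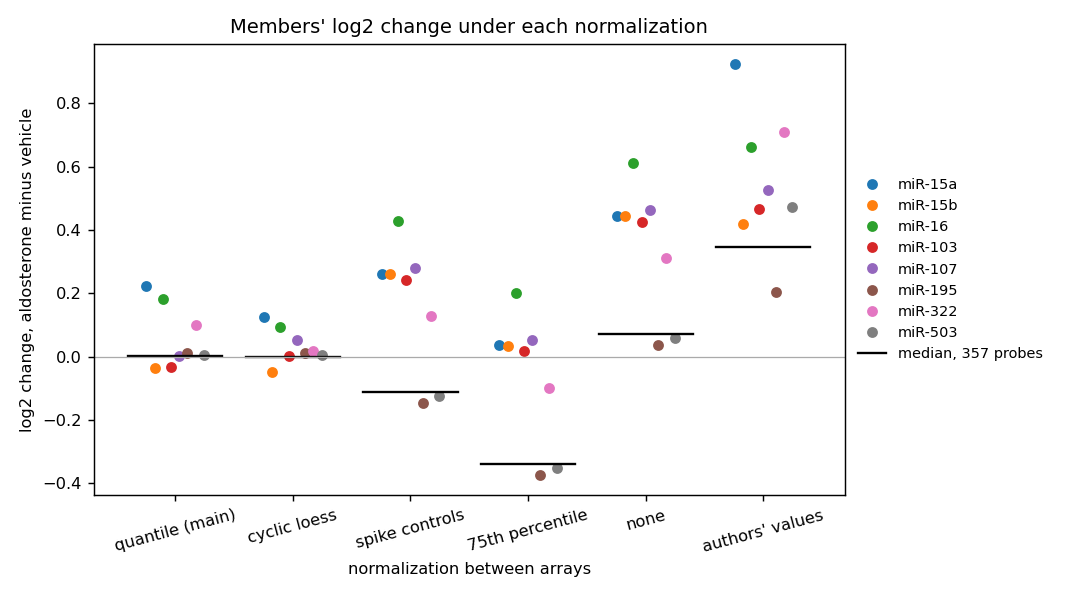
Log2 change, aldosterone minus vehicle, of the 8 tested members (points) under 6 ways of normalizing between arrays, with the median of the 357 tested probes as a black line. miR-15a and miR-16 lie above the line throughout, while the level of the line moves from -0.34 to 0.35. The share of all probes that do so was not counted.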

How the data were processed

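Each array holds 3136 spots with a raw intensity, 778 of them blank, and 2 spots for every probe. In the deposited files the authors subtracted the blank mean, kept spots above a threshold and scaled each array to a median of 25, per the file headers; this normalized intensity is the deposited signal used as an alternative. The series' table of values was identical to it (6454 values, largest difference 0).

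The deposited raw intensity was corrected with normexp (offset 50), taken to log2, averaged over unflagged spots and quantile-normalized over mouse and viral probes, then tested with limma 3.58.1 in R 4.3.3 (lmFit and eBayes, two-sided, Benjamini-Hochberg over 357 probes). Of 4 spots with a quality flag, 3 are blanks. Earlier versions of the detection rule, which counted the flagged blanks or missed probes with several names, tested fewer probes and were replaced. Printed intensities are 2 to the power of the log2 value, less the offset. The title code was tested by limma's F-test, and the number of detected members by an exact permutation test. Precision is limited by the 10 arrays, and no slide or scan was used. The fits were tested on simulated data, where the title code test missed the smaller of the planted changes. Within a group, log2 values of any pair of arrays differed with an SD of 0.175 to 0.504, so no file repeats another of its group. Arrays of different groups were not compared in this way.

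The replicate numbers come from the shared title codes, and after subtraction of the group means the arrays of a number correlated at 0.206 to 0.815, with 9 of 10 arrays closest to their own number. The numbers were therefore used to describe pairs and as the block, which is an alternative. Printed SE, intervals and adjusted p for aldosterone are from the unpaired fit unless the block is named, and detected members were tested unpaired. Over all tested probes the median SE was 0.034 without and 0.026 with the block. The members and all lists were chosen with earlier results of these data known. Named miRNAs were the 9 members, up to 3 tested miRNAs of each list with the smallest unadjusted p, and the 3 most like the mean of the members detected throughout. Outside this rule, miR-222 and the blood cell markers miR-142-3p, miR-223 and miR-451 are named as examples of their lists. All marker miRNAs were named after their detection was seen. miR-450a, miR-208a-3p, miR-199a-3p and miR-199b are named because their printed names did not match the lists. From the marker lists only counts and sums are given. Sequences and positions are RefSeq's for GRCm38.p6, since the array files name no build. Figures were drawn with matplotlib.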

Additional observations from a re-analysis of the deposited data

Results flagged for a closer look

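Of the 18 groups of 5 values checked (9 members in each treatment), 1 held a value far from the others. Chance flags about 1 in 20 such groups. The intensity of miR-15a on aldosterone 3 was 88.5 units above background, where the other 4 aldosterone arrays lay between 57.6 and 60.2. On the log2 scale of intensity plus 50, on which the values were checked, the gap to the nearest value was 0.905 of the whole range, above Dixon's critical value of 0.710 for 5 samples. Aldosterone 3 was the brightest array, with a median raw signal of 76.4, and the vehicle array of the same code gave 76.3 units for miR-15a, the highest of its group. Without aldosterone 3 the log2 change of miR-15a was 0.14 in place of 0.22. Whether array brightness plays a part was not tested.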

How the results depend on the processing

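The count of probes past the adjusted threshold for aldosterone was 0 of those tested under all 28 alternatives, with the smallest limma adjusted p of each between 0.418 and 1 and with 0 to 32 probes at an unadjusted p under 0.05. The replicate block gave 0 calls as well, with a smallest adjusted p of 0.695, and it moved the unadjusted count from 4 to 19. Detection from the deposited calls, flagged spots kept, and the removal of replicate 2 with the block were chosen after seeing the data. A slide or scan block was not run, since no such column was found in the files. Among members the direction turned without normalization between arrays for miR-15b (0.44) and miR-103 (0.43), after cyclic loess for miR-103 (0.0031), and after scaling to the 75th percentile for miR-15b (0.034), miR-103 (0.016), miR-195 (-0.37), miR-322 (-0.10) and miR-503 (-0.35). It turned after scaling to spike controls for miR-15b (0.26), miR-103 (0.24), miR-195 (-0.15) and miR-503 (-0.13), and in the authors' values for miR-15b (0.42) and miR-103 (0.47). Scaling acted after the offset was added, so that dim probes moved with it by construction, and 12% of all probes were higher after percentile scaling, 28.6% after spike scaling, 92.7% in the authors' values and 98% without normalization, against 51.8%. Without replicate 2 and with the block, miR-103 came to 0.00023 and miR-503 to -0.0087. Among the other named miRNAs, no normalization turned miR-322* (0.0073), miR-351* (0.036), miR-351 (0.077), miR-221 (0.22) and miR-92a (0.16), and cyclic loess miR-351 (0.0093). Percentile scaling turned miR-103-1* (-0.37), miR-16-2* (-0.38), miR-98 (-0.26), miR-196a (-0.28) and miR-196b (-0.23), and spike scaling miR-103-1* (-0.15), miR-16-2* (-0.15), miR-221 (0.038), miR-98 (-0.038), miR-196a (-0.053) and miR-196b (-0.0053). The authors' values turned miR-322* (0.18), miR-16-2* (-0.020), miR-351* (0.0081), miR-351 (0.29), miR-221 (0.34) and miR-92a (0.23). For miR-322* and miR-16-2* the authors' values cover 9 arrays each, so these changes also differ in the arrays used. With arrays or pairs left out, the log2 change ranged from 0.14 to 0.30 for miR-15a, -0.12 to 0.062 for miR-15b, 0.046 to 0.29 for miR-16, -0.076 to 0.0060 for miR-103, -0.038 to 0.050 for miR-107, -0.00088 to 0.024 for miR-195, 0.032 to 0.18 for miR-322 and -0.010 to 0.030 for miR-503. It ranged from -0.0029 to 0.025 for miR-16-2*, -0.032 to 0.0082 for miR-351, -0.00071 to 0.076 for miR-98 and -0.017 to 0.072 for miR-196a. The difference in detected members per array ranged from 0.05 to 0.6. The title code count, 10 probes (2.8%, 0 of 8 members), was 217 without normalization (60.8%, 8 of 8 members). It was 54 after cyclic loess (15.1%), with 4 of 8 members: miR-15a, miR-16, miR-322 and miR-503. After percentile scaling it was 335 (93.8%), with 4 of 8 members: miR-15b, miR-16, miR-195 and miR-503. With a pair left out it ran from 2 to 31, the highest without replicate 2. Plain subtraction and an offset of 16 turned no member's direction, and plain subtraction gave 0.54 for miR-103-1* in place of 0.02. The cause of the shifts was not tested.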
